A study of Homo sapiens with 6 samples.

Results

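The genes described here are 47 genes that encode chaperones and folding enzymes of the endoplasmic reticulum (ER), the machinery that removes misfolded ER proteins, and the sensors of the unfolded protein response. They were taken by name from a list, and all 47 were found once each among the 58302 genes of the deposited table. This list and the other gene lists below were chosen with earlier results of these data known. Their shares beside those of all genes are therefore description and not a test. RNA was sequenced from ME180, an established epithelial cell line that came from a human cervical cancer. The 3 siSGK1 libraries came from cells transfected for 48 h with a small interfering RNA (siRNA) against SGK1, a serine/threonine kinase related to AKT. The 3 siControl libraries came from cells transfected for 48 h with a control siRNA. Libraries of each group are numbered 2, 3 and 4 and were called biological repeats by the submitters. Both groups were transfected, both come from a single cell line, and the sequences of the siRNAs were not used here. In bulk RNA of this kind, fewer cells of a type and less RNA per cell cannot be told apart.

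Proteins destined for secretion or for membranes enter the ER through the SEC61 channel and fold there. HSPA5 (BiP), the Hsp70 chaperone of the ER lumen, binds them together with Hsp40 partners, the lectins calreticulin and calnexin hold glycoproteins, and protein disulfide isomerases form and rearrange disulfide bonds. Proteins that fail are handed to ER-associated degradation (ERAD), which passes them back to the cytosol for destruction by the proteasome. When unfolded proteins accumulate, the sensors IRE1 (encoded by ERN1), ATF6 and PERK start the unfolded protein response: IRE1 splices XBP1 mRNA into a form that encodes an active transcription factor, ATF6 is cut to release a transcription factor, and PERK slows translation. Values per gene, as used here, do not show the splicing of XBP1, the cutting of ATF6 or any protein level. Secretory epithelial cells depend on this system.

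A sequence class is shared by several of these genes and is shown first because it gives a frame for the values that follow. The ER stress element (ERSE) is a promoter sequence through which ATF6 and XBP1 are known to act, with the letters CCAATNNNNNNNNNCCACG, and a shorter relative, ERSE-II, has the letters ATTGGNCCACG. Both were searched for on both strands in RefSeq promoter windows of GRCh38.p14 that run from 250 bases before to 50 bases after an annotated start. Windows were found for 43 of the 47 genes. An exact ERSE stood in a window of 8 of these 43 genes (18.6%) and in 25 of all 27305 genes with a window (0.0916%). ERSE-II stood in 3 of 43 (6.98%) and in 19 of 27305 genes (0.0696%). Many of these genes are known for this element, so its presence is background and not a result. The matches below read 5′ to 3′ on the strand that carries the element, with the 5-base ends of the element in capitals and up to 10 bases on either side.
HSPA5 ERSE, chr9:125241381-125241419, minus strand: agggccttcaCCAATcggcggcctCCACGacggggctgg
HSP90B1 ERSE, chr12:103930206-103930244, plus strand: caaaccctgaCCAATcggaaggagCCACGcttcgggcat
HSP90B1 second ERSE, chr12:103930311-103930349, minus strand: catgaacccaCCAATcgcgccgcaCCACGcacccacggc
CALR ERSE, chr19:12938374-12938412, minus strand: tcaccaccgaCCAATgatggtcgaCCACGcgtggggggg
PDIA6 ERSE, chr2:10812843-10812881, minus strand: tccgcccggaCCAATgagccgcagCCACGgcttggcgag
CRELD2 ERSE, chr22:49918544-49918582, minus strand: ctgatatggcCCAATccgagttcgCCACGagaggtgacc
XBP1 ERSE, chr22:28800593-28800631, minus strand: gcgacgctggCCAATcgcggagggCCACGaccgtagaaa
CANX ERSE, chr5:179698768-179698806, plus strand: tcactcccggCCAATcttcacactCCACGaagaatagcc
HERPUD1 ERSE-II, chr16:56932015-56932045, plus strand: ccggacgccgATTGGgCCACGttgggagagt
HYOU1 ERSE-II, chr11:119057264-119057294, plus strand: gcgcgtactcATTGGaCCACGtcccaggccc
SDF2L1 ERSE-II, chr22:21642104-21642134, minus strand: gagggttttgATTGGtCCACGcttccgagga

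The remaining exact ERSE was in a window of ERO1B, and HYOU1 held a further ERSE-II. The elements of HSP90B1, PDIA6, CANX and CRELD2 lie inside the span that the deposited table gives for these genes, ahead of a later annotated start.

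The libraries held 28405647 to 35242643 reads in siSGK1 and 27262794 to 27874948 in siControl. SGK1 itself measured 1.58, 1.70 and 1.81 FPKM in the siSGK1 libraries, against 3.91, 4.27 and 4.17 FPKM in the siControl libraries, so the groups did not overlap and the knockdown left 41.2% of the control level. FPKM are fragments counted per length of the gene and scaled to the size of the library, so levels of different genes can be set side by side. All 10 markers of squamous epithelium averaged at least 1 FPKM, with a summed level of 7909 to 9203 FPKM in siSGK1 and 12265 to 13181 FPKM in siControl. The keratins and SFN make up nearly all of that sum, while TP63, CDH1 and EPCAM overlapped between the groups (37.6 to 39.4, 42.9 to 44.0 and 35.2 to 37.6 FPKM in siSGK1, against 35.8 to 40.6, 42.6 to 43.4 and 35.6 to 37.9 FPKM in siControl). The remaining marker, DSP, was lower without overlap, at 32.2 to 34.1 FPKM in siSGK1, against 43.9 to 50.1 FPKM in siControl. Leukocyte markers (0 of 6 at 1 FPKM on average) were near absent, and of 6 fibroblast markers COL1A1 alone passed 1 FPKM. Endothelial markers were low (0 of 4 at 1 FPKM on average, with PECAM1 at 0 in every library). The highest of them, VWF, had 0.447 to 0.583 FPKM in siSGK1, against 1.14 to 1.46 FPKM in siControl. Mitochondrial genes took 3.38% to 3.66% of reads in siSGK1 and 4.16% to 4.40% in siControl. The part of the squamous epithelium marker level and of the mitochondrial share in the results below was not tested.

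On the scale of the deposited values, transcripts of HSP90B1, CALR, ERO1A and other folding factors were higher in siSGK1 cells. Those of DNAJB9, HERPUD1, DERL1, XBP1, WFS1 and FKBP2 were lower on that scale. The highest fold was 1.51, for FKBP11, and the lowest level was 68.6% of control, for DNAJB9. Of the 47 genes, 41 had a mean of at least 1 FPKM and were tested with limma on log2(FPKM + 0.5), a scale that understates changes of low genes. A gene was called at a Benjamini-Hochberg adjusted p below 0.05 over all 11945 genes tested. Of the 41, 15 were called higher and 6 lower, which is 36.6% and 14.6%. Of the 6, only DNAJB9 and HERPUD1 were also called lower when libraries were scaled by total reads or to TPM. Among all genes of the table that were tested, 40.6% were called, 17.9% in the higher and 22.7% in the lower direction. In 17 of the 41 every siSGK1 value lay above every siControl value, a pattern seen in 24.6% of all genes tested, and in 7 every siSGK1 value lay below, against 28.8% of all genes tested. The median log2 change was 0.06, beside -0.01 for all genes tested. Called with a change of at least 1.25-fold on this scale were 9 of the 41 (22.0%), near the 20.5% of all genes tested. In sum the 47 genes took 0.490%, 0.511% and 0.506% of reads in the siSGK1 libraries 2, 3 and 4, against 0.420%, 0.408% and 0.408% in siControl. Shares of reads are on the scale of total reads, on which the median gene of the table itself lay at 0.12 log2 units. As deposited, the summed level of the 47 genes was 1397, 1366 and 1425 FPKM in siSGK1, against 1304, 1268 and 1242 FPKM in siControl.

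**Figure D1:**
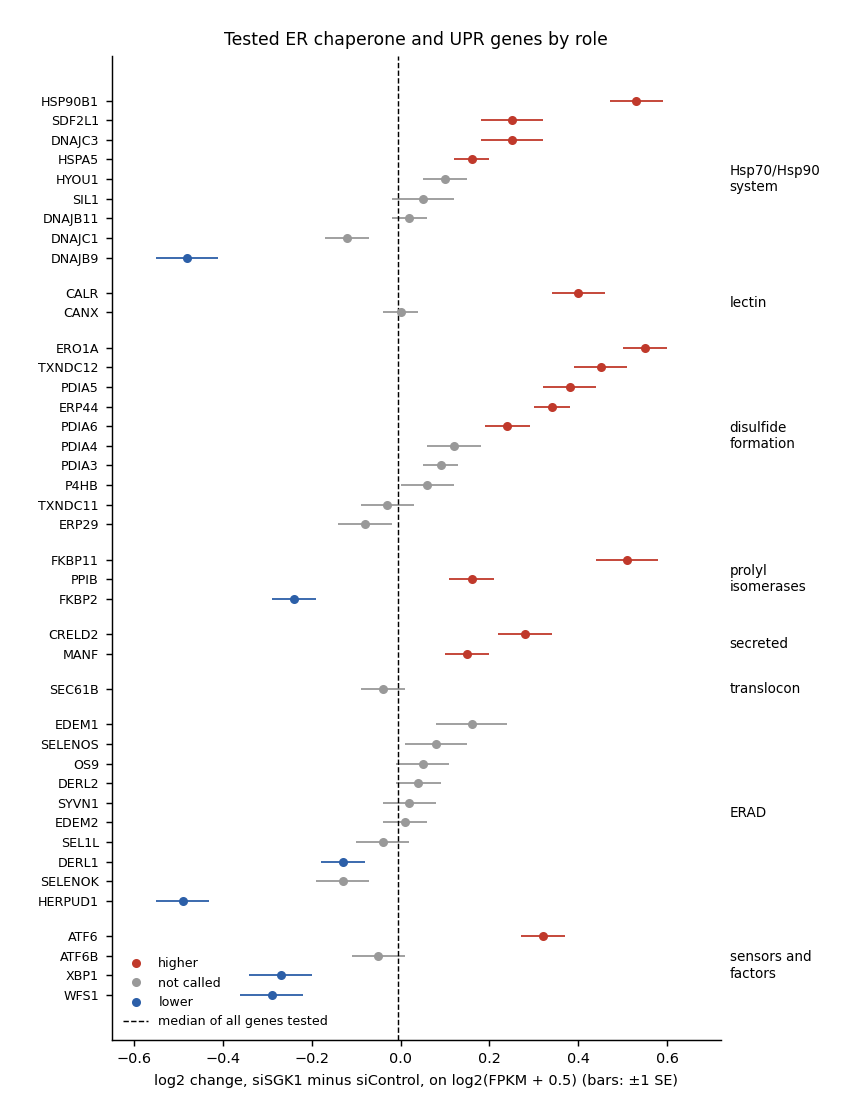
Log2 change (siSGK1 minus siControl, x axis, on log2(FPKM + 0.5)) of the 41 tested genes, grouped by role down the page, with bars of 1 SE and a dashed line at the median of all genes tested. Chaperones and disulfide enzymes hold most of the 15 genes called higher (red), and the ERAD group holds none of them as deposited (5 of its 10 genes were called higher by total reads and 6 by TPM).

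Directions and calls depend on how libraries are put on a common scale. As deposited, the median gene of the table lay at -0.006 log2 units. It lay at 0.013 after quantile normalization, at 0.12 with scaling by total reads and at 0.176 with TPM scaling, which gives every library the same sum of levels. Calls higher and lower among the 41 genes were 18 and 5 after quantile normalization, 27 and 2 by total reads, and 31 and 2 by TPM. Over the whole table quantile normalization called 40.9% of genes, 20.9% as higher and 19.9% as lower. Total reads called 49.0%, 36.1% as higher and 12.9% as lower. TPM called 57.1%, 47.2% as higher and 9.80% as lower. Measured against the median gene of each scaling, the median of the 41 genes was higher by 0.07, 0.11, 0.08 and 0.09 log2 units in that order of settings. The values that follow are as deposited, and a scaling is named where it turns a direction, ends a call or makes one.

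**Figure D2:**
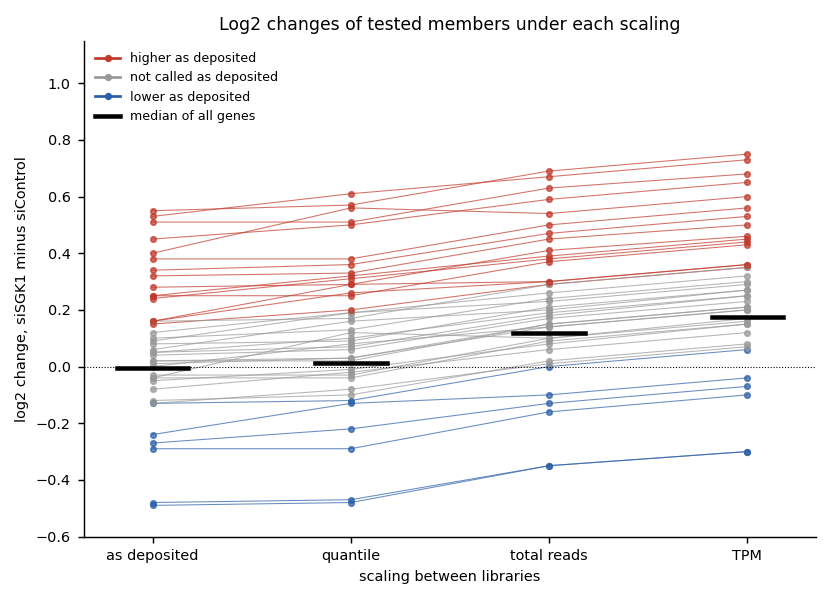
Log2 change (siSGK1 minus siControl, y axis) of each of the 41 tested genes under 4 scalings (x axis), joined by lines coloured by the call as deposited, with black bars at the median of all genes. The whole set moves up with the median gene, which goes to 0.12 by total reads and 0.176 by TPM, while DNAJB9 and HERPUD1 stay lowest under each.

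Among the Hsp70 and Hsp90 chaperones and their co-chaperones, the call was higher for 4 of 9 tested genes and lower for 1. That is 44.4% and 11.1%, beside 17.9% and 22.7% of all genes tested. HSP90B1 (GRP94, the Hsp90 of the ER; ENSG00000166598, chromosome 12, 103930107 to 103953645, plus strand) had 61.9, 66.3 and 60.2 FPKM in siSGK1, against 40.3, 43.9 and 46.0 FPKM in siControl. All siSGK1 values stood well above all siControl values, and the fold was 1.45. The log2 change was 0.53 (SE 0.06, limma adjusted p = 2.83e-04). HSPA5, the central chaperone and the classic readout of ER stress (ENSG00000044574, chromosome 9, 125234853 to 125241330, minus strand), had 118.4, 120.9 and 123.4 FPKM in siSGK1, against 111.3, 107.5 and 105.7 FPKM in siControl. It rose by 1.12-fold, with groups that were close but did not overlap (log2 change 0.16, SE 0.04, limma adjusted p = 0.016). That call was lost without siSGK1 replicate 4, siControl replicate 3 or siControl replicate 4 (limma adjusted p = 0.065, 0.067 and 0.056).

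The other chaperone partners differed from one another in direction. DNAJB9 (ERdj4), an Hsp40 that keeps IRE1 in check through HSPA5 and is a known XBP1 target, had 3.15 FPKM in each of the 3 siSGK1 libraries, against 4.42, 5.03 and 4.33 FPKM in siControl. It fell to 68.6% of the control level (ENSG00000128590, chromosome 7, 108569568 to 108574850, plus strand; log2 change -0.48, SE 0.07, limma adjusted p = 7.03e-04), and at 263 to 370 reads per library it was the most thinly read of the tested genes. Its exons overlap those of PNPLA8 and THAP5 on the other strand over 3.49% and 6.45% of their length. SDF2L1, which helps HSPA5 cycle on and off its clients, had 51.5, 43.2 and 47.5 FPKM in siSGK1, against 41.2, 39.8 and 38.3 FPKM in siControl (log2 change 0.25, SE 0.07, limma adjusted p = 0.017). DNAJC3 (p58IPK), a co-chaperone that also restrains PERK, had 2.82, 3.39 and 3.02 FPKM in siSGK1, against 2.49, 2.55 and 2.45 FPKM in siControl (log2 change 0.25, SE 0.07, limma adjusted p = 0.023). The siSGK1 libraries of both genes lay above all siControl libraries, but the calls were not firm. SDF2L1 lost its call without siControl replicate 3 or 4 (limma adjusted p = 0.050 and 0.058). DNAJC3 lost its call without siSGK1 replicate 3 or 4 or any siControl replicate (limma adjusted p = 0.052 to 0.059).

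The remaining genes of this group were not called as deposited. By total reads and by TPM 7 of all 9 tested genes of the group were called higher, including the 4 called higher as deposited. HYOU1 (GRP170), a nucleotide exchange factor for HSPA5, averaged 12.6 ± 0.36 FPKM in siSGK1 and 11.7 ± 0.53 FPKM in siControl (SD, n = 3 each), with every siSGK1 value above every siControl value (limma adjusted p = 0.14). HYOU1 was called higher by total reads (log2 change 0.24, limma adjusted p = 0.0045) and by TPM (0.30, limma adjusted p = 0.0014). DNAJC1, an ER membrane Hsp40, averaged 8.23 ± 0.14 FPKM in siSGK1 and 8.96 ± 0.23 FPKM in siControl, without overlap (limma adjusted p = 0.076), and its log2 change of -0.12 became 0.02 by total reads and 0.08 by TPM. The Hsp40 DNAJB11 averaged 8.18 ± 0.099 FPKM in siSGK1 and 8.07 ± 0.088 FPKM in siControl, and the exchange factor SIL1 averaged 11.1 ± 0.85 FPKM in siSGK1 and 10.7 ± 0.62 FPKM in siControl. The 95% interval of the log2 change was -0.08 to 0.12 for DNAJB11 and -0.10 to 0.20 for SIL1. Both were called higher by total reads (limma adjusted p = 0.023 for DNAJB11 and 0.031 for SIL1) and by TPM (0.0053 and 0.0080). DNAJC10, an Hsp40 with disulfide reductase activity, had 0.834 to 0.882 FPKM in siSGK1 and 0.719 to 0.911 FPKM in siControl and lay below the level filter.

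The lectin chaperones, which bind sugar chains of newly made glycoproteins, gave unlike values. CALR (calreticulin, the soluble lectin; ENSG00000179218, chromosome 19, 12938578 to 12944489, plus strand) had 265.8, 258.1 and 286.3 FPKM in siSGK1, against 217.6, 199.6 and 197.5 FPKM in siControl. Its groups were well apart, at 1.32-fold (log2 change 0.40, SE 0.06, limma adjusted p = 9.00e-04). CALR was the most abundant of the 47 genes in every library and made up 18.9% to 20.1% of their summed FPKM in siSGK1, against 15.7% to 16.7% in siControl. CANX (calnexin, its membrane-bound relative) had 51.5, 54.9 and 52.3 FPKM in siSGK1, against 52.9, 52.9 and 53.0 FPKM in siControl. The groups overlapped, and the 95% interval of the log2 change ran from -0.10 to 0.09. By TPM scaling CANX was called higher (log2 change 0.20, limma adjusted p = 0.0098), as it was by total reads (0.14, limma adjusted p = 0.041). The promoter windows of both lectin genes hold an exact ERSE, printed above.

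Genes of disulfide bond formation were called higher in 5 of 10 tested cases (50%, beside 17.9% of all genes tested). By limma none was called lower, beside 22.7% of all genes tested. The count lower was also 0 with recovered reads in voom and 0 at an unadjusted p under 0.05. ERO1A, the oxidase that recharges protein disulfide isomerases (ENSG00000197930, chromosome 14, 52639916 to 52695900, minus strand), had 10.2, 11.1 and 10.7 FPKM in siSGK1, against 7.06, 7.13 and 7.14 FPKM in siControl. The siControl libraries were nearly equal and all siSGK1 libraries were higher, well apart from them (log2 change 0.55, SE 0.05, limma adjusted p = 8.69e-05). TXNDC12 (ERp18), a small thioredoxin-like enzyme, had 24.0, 22.6 and 25.5 FPKM in siSGK1, against 17.1, 16.9 and 18.4 FPKM in siControl (log2 change 0.45, SE 0.06, limma adjusted p = 5.04e-04). The groups did not overlap, and exons of TXNDC12 share 13.8% of their length with KTI12 on the same strand. ERP44, which retains ERO1 oxidases in the early secretory pathway, had 14.3, 14.4 and 14.1 FPKM in siSGK1, against 10.9, 11.4 and 11.3 FPKM in siControl. This difference was many times the spread within either group (1.27-fold, log2 change 0.34, SE 0.04, limma adjusted p = 5.11e-04).

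The isomerases proper moved less evenly. PDIA5 had 4.11, 4.45 and 4.04 FPKM in siSGK1, against 3.15, 2.96 and 3.26 FPKM in siControl (log2 change 0.38, SE 0.06, limma adjusted p = 0.0019), with 12.2% of its exon length shared with SEC22A on the same strand. PDIA6, an isomerase that also damps IRE1 signalling, had 36.5, 36.2 and 38.8 FPKM in siSGK1, against 31.3, 32.2 and 30.8 FPKM in siControl (log2 change 0.24, SE 0.05, limma adjusted p = 0.0037). Both genes had all siSGK1 libraries above all siControl libraries. The isomerase P4HB (PDI), the most abundant gene of the disulfide group, averaged 95.2 ± 5.8 FPKM in siSGK1 and 91.1 ± 4.4 FPKM in siControl, and the groups overlapped (limma adjusted p = 0.42). PDIA3 (ERp57), the isomerase that works with the lectins, averaged 57.5 ± 1.0 FPKM in siSGK1 and 53.9 ± 1.1 FPKM in siControl without overlap (limma adjusted p = 0.10), and PDIA4 (ERp72) averaged 33.2 ± 1.5 FPKM in siSGK1 and 30.5 ± 2.0 FPKM in siControl (limma adjusted p = 0.13). PDIA3 also has a processed copy, PDIA3P1, at 7.63 to 8.46 FPKM in siSGK1 and 6.89 to 8.18 FPKM in siControl, with which it could share reads. P4HB, PDIA3 and PDIA4 were each called higher under quantile, total-read and TPM scaling, and PDIA4 also without siControl replicate 2 (limma adjusted p = 0.047). The chaperone ERP29 averaged 29.8 ± 1.3 FPKM in siSGK1 and 31.6 ± 1.7 FPKM in siControl, and TXNDC11 averaged 5.72 ± 0.24 FPKM in siSGK1 and 5.85 ± 0.27 FPKM in siControl. Neither was called, and both had log2 changes just below 0 as deposited that turned positive by total reads and by TPM, where ERP29 was called higher (limma adjusted p = 0.042 by TPM).

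**Figure D3:**
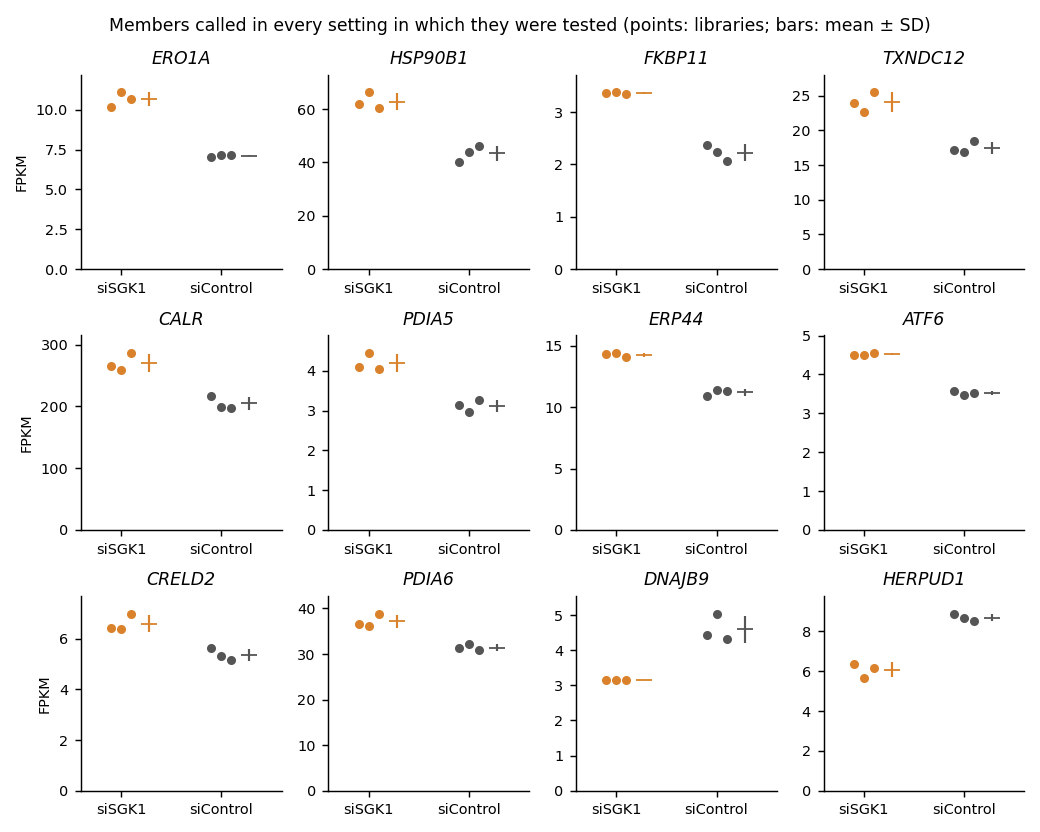
FPKM in each library (points) with the mean and SD beside them, siSGK1 at left and siControl at right, for the 12 genes whose call held in every setting in which they were tested. Higher in siSGK1 are 10 genes, and DNAJB9 and HERPUD1 are lower. The groups do not overlap in any of the 12 panels, which largely follows from choosing genes by their calls in these same libraries.

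Prolyl isomerases, which turn the peptide bond before proline, and the secreted stress proteins were all called, beside 40.6% of all genes tested. FKBP11 (ENSG00000134285, chromosome 12, 48921518 to 48926474, minus strand) had 3.37, 3.38 and 3.34 FPKM in siSGK1, against 2.38, 2.23 and 2.06 FPKM in siControl. It stood at 1.51-fold with no overlap (log2 change 0.51, SE 0.07, limma adjusted p = 5.12e-04). PPIB (cyclophilin B) had 81.5, 77.2 and 83.9 FPKM in siSGK1, against 74.9, 72.3 and 70.2 FPKM in siControl (log2 change 0.16, SE 0.05, limma adjusted p = 0.029), and lost its call without siSGK1 replicate 2 or 4 or siControl replicate 3 or 4 (limma adjusted p = 0.074, 0.11, 0.091 and 0.093). FKBP2 went the other way. It had 61.8, 56.3 and 61.1 FPKM in siSGK1, against 73.5, 70.9 and 67.8 FPKM in siControl (log2 change -0.24, SE 0.05, limma adjusted p = 0.0067), a call that ended by total reads (log2 change -0.10, limma adjusted p = 0.052) and by TPM (-0.04, limma adjusted p = 0.37).

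CRELD2 and MANF encode small proteins that are induced by ER stress and can be secreted. CRELD2 had 6.41, 6.39 and 6.98 FPKM in siSGK1, against 5.62, 5.31 and 5.15 FPKM in siControl (log2 change 0.28, SE 0.06, limma adjusted p = 0.0058). MANF had 26.2, 24.1 and 25.6 FPKM in siSGK1, against 23.2, 23.1 and 21.9 FPKM in siControl (log2 change 0.15, SE 0.05, limma adjusted p = 0.035). Neither gene had overlapping groups. The call of MANF was lost in 5 of 6 fits that left out a library, namely siSGK1 replicate 2 or 4 or any siControl replicate (limma adjusted p = 0.058 to 0.11). CRELD2 exons overlap ALG12 on the other strand over 3.25% of their length.

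Among the 10 tested ERAD genes, 0 were called higher and 2 lower by limma. That is 0% and 20%, beside 17.9% and 22.7% of all genes tested, so the share lower was near that of all genes. At an unadjusted p under 0.05 the counts were also 0 and 2, and with voom on recovered reads they were again 0 and 2. These counts turn with the scaling: they were 0 and 1 after quantile normalization, 5 and 1 by total reads, and 6 and 1 by TPM, with HERPUD1 the lower gene under each. HERPUD1, an ER membrane protein that scaffolds the ERAD complex and is strongly stress-inducible (ENSG00000051108, chromosome 16, 56932048 to 56944863, plus strand), had 6.38, 5.65 and 6.19 FPKM in siSGK1, against 8.88, 8.66 and 8.54 FPKM in siControl. It fell to 69.8% of the control level with groups far apart (log2 change -0.49, SE 0.06, limma adjusted p = 3.07e-04). DERL1, a subunit of the retrotranslocation channel, had 8.99, 9.27 and 9.40 FPKM in siSGK1, against 10.2, 10.4 and 9.90 FPKM in siControl. Its call was marginal (log2 change -0.13, SE 0.05, limma adjusted p = 0.049) and was lost when any library was left out (limma adjusted p = 0.057 to 0.17) or after quantile normalization (limma adjusted p = 0.056), while by total reads and by TPM its log2 change was 0.00 and 0.06.

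No other ERAD gene was called as deposited. The ubiquitin ligase SYVN1 (HRD1) averaged 4.44 ± 0.27 FPKM in siSGK1 and 4.36 ± 0.16 FPKM in siControl, and its adaptor SEL1L averaged 4.88 ± 0.25 FPKM in siSGK1 and 5.01 ± 0.11 FPKM in siControl. The 95% intervals of the log2 change were -0.12 to 0.16 for SYVN1 and -0.16 to 0.09 for SEL1L. SYVN1 was called higher by TPM (limma adjusted p = 0.016), and the log2 change of SEL1L turned to 0.09 by total reads and 0.15 by TPM. Exons of SYVN1 overlap FAU, a ribosomal protein gene at a mean of 332 FPKM, on the same strand over 7.24% of their length. The mannose-trimming EDEM1 averaged 4.11 ± 0.34 FPKM in siSGK1 and 3.61 ± 0.34 FPKM in siControl, with overlap (limma adjusted p = 0.14), and its relative EDEM2 averaged 11.9 ± 0.43 FPKM in siSGK1 and 11.9 ± 0.50 FPKM in siControl. Both EDEM genes were called higher by total reads (limma adjusted p = 0.026 for EDEM1 and 0.031 for EDEM2) and by TPM (0.012 and 0.0058). The lectin OS9, the channel subunit DERL2 and the selenoprotein SELENOS had log2 changes of 0.05, 0.04 and 0.08, and the selenoprotein SELENOK had -0.13. OS9, DERL2 and SELENOS were called higher by total reads (limma adjusted p = 0.012, 0.021 and 0.035) and by TPM (0.0027, 0.0056 and 0.012). SELENOK was called lower without siControl replicate 4 (limma adjusted p = 0.043), and its log2 change turned to 0.01 by total reads and 0.07 by TPM.

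Sensors and transcription factors were split. ATF6 (ENSG00000118217, chromosome 1, 161766294 to 161964070, plus strand) had 4.50, 4.51 and 4.55 FPKM in siSGK1, against 3.57, 3.46 and 3.53 FPKM in siControl. The spread within groups was very small beside the 1.28-fold difference (log2 change 0.32, SE 0.05, limma adjusted p = 0.0015). Its paralogue ATF6B averaged 22.5 ± 1.8 FPKM in siSGK1 and 23.4 ± 0.94 FPKM in siControl, and the groups overlapped (limma adjusted p = 0.53). Its log2 change of -0.05 turned to 0.08 by total reads and to 0.15 by TPM, where it was called higher (limma adjusted p = 0.031). XBP1 (ENSG00000100219, chromosome 22, 28794555 to 28800597, minus strand) had 15.0, 15.4 and 17.2 FPKM in siSGK1, against 20.4, 19.3 and 17.9 FPKM in siControl. All siSGK1 values were below all siControl values, by a narrow margin (log2 change -0.27, SE 0.07, limma adjusted p = 0.014). WFS1, an ER membrane glycoprotein that restrains ATF6 signalling, had 5.0, 4.27 and 4.90 FPKM in siSGK1, against 6.11, 5.84 and 5.65 FPKM in siControl (log2 change -0.29, SE 0.07, limma adjusted p = 0.0095). Both lost their calls by total reads (log2 change -0.13 and -0.16, limma adjusted p = 0.12 and 0.051) and by TPM (-0.07 and -0.10, limma adjusted p = 0.38 and 0.16). XBP1 also lost its call without a level filter (limma adjusted p = 0.063).

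ERN1, which encodes IRE1, had 0.804, 0.909 and 0.877 FPKM in siSGK1, against 1.11, 1.03 and 0.987 FPKM in siControl, and lay just below the level filter. Every siSGK1 value was below every siControl value, and without the filter the gene was not called (limma adjusted p = 0.27). EDEM3, also below the filter, had 1.03, 1.06 and 0.937 FPKM in siSGK1, against 0.772, 0.716 and 0.851 FPKM in siControl (limma adjusted p = 0.17 without the filter). TXNDC5 (0.620 to 0.833 FPKM in siSGK1 and 0.634 to 0.791 FPKM in siControl) and ERO1B (0.891 to 1.02 and 0.726 to 0.981 FPKM) overlapped between groups. Over 60.6% of its exon length TXNDC5 coincides with the readthrough gene BLOC1S5-TXNDC5, which is listed at 0 FPKM. DERL3 had 9 to 23 reads per library, and 77.0% of its exon length overlaps SMARCB1 on the other strand. SEC61B, a subunit of the translocation channel and one of the most abundant of the 47 genes, had 151.3, 151.0 and 140.3 FPKM in siSGK1, against 149.9, 153.5 and 150.2 FPKM in siControl. Its groups overlapped (limma adjusted p = 0.56). Its log2 change of -0.04 turned to 0.12 after quantile normalization, 0.10 by total reads and 0.17 by TPM, where it was called higher (limma adjusted p = 0.017).

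Set beside the promoter sequences printed above, the genes with an element did not all change alike. Of the 7 tested genes with an exact ERSE, 5 were called higher (HSPA5, HSP90B1, CALR, PDIA6 and CRELD2), XBP1 was called lower and CANX was not called. Of the 3 genes with ERSE-II, SDF2L1 was called higher, HERPUD1 lower, and HYOU1 was not called. By total reads and by TPM CANX and HYOU1 were called higher and XBP1 was not called. Over the 10 tested genes with either element 6 were called higher and 2 lower, with a median log2 change of 0.20. Over the 28 tested genes whose windows hold neither, 9 were called higher and 3 lower, with a median of 0.05. Among all genes tested 17.9% were called higher and 22.7% lower. Genes with neither element also gained calls with scaling. DNAJB11, PDIA4, P4HB, EDEM1, EDEM2, DERL2, OS9, SIL1 and SELENOS were called higher by total reads and by TPM. WFS1 and FKBP2 were then no longer called lower. The contrast between genes with and without an element thus rests on the deposited scale and on exact matches. With at most 1 mismatch allowed in the CCACG end, the ERSE stood in windows of 14 of 43 genes (32.6%), against 1.28% of all genes. That set holds every gene with an exact ERSE or ERSE-II and adds WFS1, which was called lower, and SEL1L and SELENOK, which were not called. Of its 13 tested genes, 6 were called higher, 3 lower and 4 were not called. ERO1A, FKBP11, TXNDC12 and ATF6, which were among the higher genes, have neither element in these windows, and the same holds for DNAJB9 among the lower genes. The UPR element TGACGTGG stood in windows of 4 genes, HYOU1, DNAJC10, TXNDC5 and TXNDC11, which is 9.30% of the 43, against 0.927% of all genes with a window. Of these, HYOU1 and TXNDC11 were tested and 0 were called by limma as deposited (0 with voom and 0 at an unadjusted p under 0.05), while HYOU1 was called higher by total reads and by TPM. In HYOU1 this match overlaps the further ERSE-II, which is not printed.

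Genes of the secretory pathway outside the 47 were sorted into 8 lists of 133 genes. Of these, 120 were tested, 20 were called higher and 17 lower (16.7% and 14.2%, beside 17.9% and 22.7% of all genes tested), with a median log2 change of 0.02. Without siControl replicate 3 the count of lower genes was 10. By total reads 53 were higher and 7 lower, and by TPM 72 were higher and 4 lower. The list nearest to the disulfide enzymes, of other ER thioredoxin-fold and redox genes, had 4 of 11 higher and 1 lower. In it the ER peroxiredoxin PRDX4, which uses peroxide to oxidize disulfide isomerases, had 66.5, 69.2 and 69.8 FPKM in siSGK1, against 43.2, 43.7 and 44.8 FPKM in siControl. That was the largest log2 change of the named genes of these lists (0.63, SE 0.04, limma adjusted p = 2.10e-05). AGR2, a disulfide isomerase of mucus-secreting epithelia, averaged 6.97 ± 0.40 FPKM in siSGK1 and 4.79 ± 0.19 FPKM in siControl (log2 change 0.50, limma adjusted p = 3.46e-04). Counts higher and lower among the 11 redox genes became 5 and 1 by total reads, and 8 and 1 by TPM.

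The third branch of the response, PERK with its effector ATF4 and their target genes, had 2 of 13 tested genes higher and 1 lower. That is 15.4% and 7.69%, beside 17.9% and 22.7% of all genes tested. CEBPB, a transcription factor that partners with several of them, fell to 52.2 ± 3.2 FPKM in siSGK1, against 78.5 ± 6.2 FPKM in siControl (log2 change -0.58, limma adjusted p = 3.05e-04). ATF5 averaged 13.1 ± 0.42 FPKM in siSGK1 and 10.2 ± 0.27 FPKM in siControl (log2 change 0.34, limma adjusted p = 7.68e-04). In this list of 13, counts higher and lower became 5 and 1 by total reads, and 7 and 1 by TPM. Of 7 tested genes of sensor processing and ER-anchored transcription factors, 2 were called higher, the IRE1 adaptor TRAF2 (log2 change 0.40) and CREB3 (0.26), and 0 lower (limma, with 1 lower at an unadjusted p under 0.05 and 0 with voom). Among these 7, the counts became 3 and 0 by total reads, and 4 and 0 by TPM.

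The counts of the lists below are as deposited unless a scaling is named. They stand beside 17.9% called higher and 22.7% called lower among all genes tested. Over all genes tested, total reads called 36.1% higher and 12.9% lower, and TPM called 47.2% higher and 9.80% lower. Other ERAD and retrotranslocation genes had 2 of 21 higher and 3 lower (9.52% and 14.3%). The 2 were ERLIN1 and ERLIN2, partners in a complex that degrades activated calcium channels of the ER. Counts higher and lower in this list became 13 and 0 by total reads, and 14 and 0 by TPM. ERLIN2 averaged 4.25 ± 0.16 FPKM in siSGK1 and 2.73 ± 0.22 FPKM in siControl, and ERLIN1 averaged 5.35 ± 0.13 FPKM in siSGK1 and 3.77 ± 0.30 FPKM in siControl (log2 changes 0.56 and 0.46). For the translocon and signal peptidase 2 of 23 were higher and 3 lower, among them SRP19 (log2 change 0.45) and SRP14 (-0.29), subunits of the signal recognition particle. Translocon counts became 9 and 1 by total reads, and 16 and 1 by TPM. The ER membrane protein complex had 2 of 10 higher and 3 lower, among them EMC9 (log2 change 0.20) and EMC2 (-0.24, a call that ended by total reads and by TPM). Its counts became 5 and 0 by total reads, and 6 and 0 by TPM. COPII coat, cargo and KDEL receptor genes had 3 of 21 higher and 4 lower. KDELR3, a receptor that returns ER proteins carrying a KDEL tail, averaged 6.23 ± 0.15 FPKM in siSGK1 and 7.73 ± 0.15 FPKM in siControl, and the cargo receptor subunit MCFD2 had a log2 change of -0.29. Both calls ended by TPM scaling. Counts of the COPII list became 8 and 3 by total reads, and 10 and 0 by TPM. Collagen folding and modifying enzymes had 3 of 14 higher and 2 lower, among them P4HA1 (log2 change 0.28) and CRTAP (-0.34). For these enzymes the counts became 5 and 1 by total reads, and 7 and 1 by TPM.

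**Figure D4:**
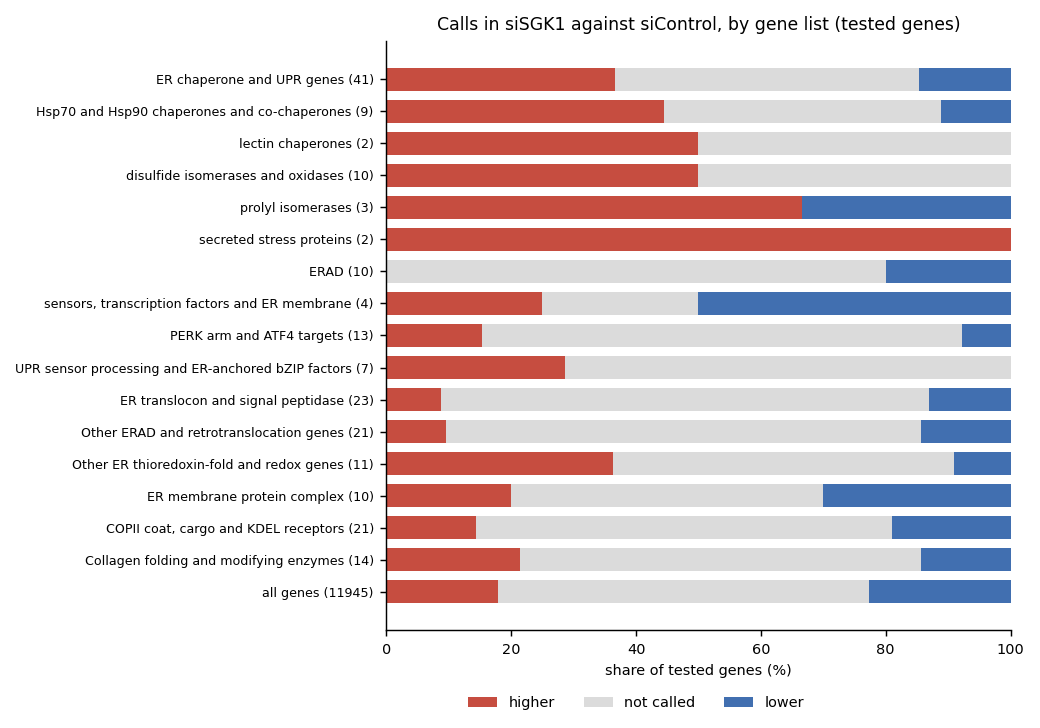
Share of tested genes (x axis, %) called higher (red), not called (grey) and called lower (blue) in siSGK1 against siControl, for the 41 tested ER chaperone and unfolded protein response genes, their role groups, 8 other secretory pathway lists and all 11945 genes, with the number tested in brackets. As deposited, shares higher run from 0% in ERAD to 100% of the 2 secreted stress proteins, beside 17.9% of all genes.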

How the data were processed

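PolyA RNA of 6 libraries was sequenced. The authors deposited FPKM for each gene and library, per the file headers, and the submitters' processing notes name bcl2fastq 2.19, HISAT2 2.0.5, featureCounts 1.5.0-p3 and hg19. No source used here gives the strand setting or the handling of shared reads. Overlapping genes may share reads (13 of the 47 genes overlap exons of a tested gene). The table's positions match GRCh38: 97.6% of 58039 shared gene identifiers have the position of GENCODE 29.

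Multiplying FPKM by gene length gave whole reads in every library for 100% of values above 0 (tolerance 0.001), and their sums are the read totals. Library sizes implied by the steps were 1.04, 1.09 and 1.04 times these totals in siSGK1 and 0.954, 0.952 and 0.967 times in siControl. The deposited FPKM thus already carry a scaling between libraries, and it differs between the groups, lowering siSGK1 values relative to siControl. Genes with a mean of at least 1 FPKM entered limma 3.58.1 (R 4.3.3) after a log2 transform with pseudocount 0.5 (intensity trend, two-sided, adjusted over 11945 genes). The fit was first run on simulated data with few changed genes and no scaling difference between the groups. That run therefore does not cover many changed genes or a scaling that differs by group. The p-values measure the spread between 3 libraries a group. An exact permutation test of 3 against 3 cannot go below p = 0.1. Sequences came from RefSeq windows of GRCh38.p14. Named genes are SGK1, the 47 genes and the 2 tested genes with the smallest p of each of 8 lists. Members and lists were chosen with earlier results of these data known. Replicates of a group differed by more than counting noise (chi-square per degree of freedom 3.14 to 7.60). Alternatives were other pseudocounts, filters, scalings, limma-voom (added after the data were seen), a replicate block and leaving out each library.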

Additional observations from a re-analysis of the deposited data

How the results depend on the processing

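Pseudocounts of 0.1 and 1, and limma-voom on recovered reads, changed no call of the 41 tested genes. Of their 21 calls, 12 (10 higher, 2 lower) held in every setting that tested them, and 9 were lost in at least 1 setting. Leaving out each library in turn gave 10 to 14 members higher and 5 to 6 lower, a median member change of 0.03 to 0.10, 1678 to 1960 genes higher and 2095 to 2506 lower, and 18 to 24 secretory pathway genes outside the 47 higher and 10 to 16 lower. With no level filter 11 members were higher and 4 lower, as DNAJC3, SDF2L1, MANF, PPIB, DERL1 and XBP1 lost their calls. Genes called higher numbered 1282 with a mean FPKM of at least 5, 4309 by total reads and 5644 by TPM, and genes called lower 1546 and 1171 by these scalings. Members called higher numbered 27 by total reads and 31 by TPM, and called lower 2 and 2. Their median change was 0.12 after quantile normalization, 0.20 by total reads and 0.27 by TPM. Outside genes called higher numbered 33, 53 and 72 in these settings, and called lower 7 by total reads and 4 by TPM. The medians of all genes move with these scalings, and any other cause was not tested. The fits with edgeR that had been planned were not run, since the deposited unit is FPKM.

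Signs turned for DERL1 and for uncalled genes. By total reads the log2 changes were 0.02 (DNAJC1), 0.14 (CANX), 0.06 (ERP29), 0.10 (TXNDC11), 0.09 (SEL1L), 0.00 (DERL1), 0.08 (ATF6B), 0.01 (SELENOK) and 0.10 (SEC61B). By TPM they were 0.08, 0.20, 0.12, 0.16, 0.15, 0.06, 0.15, 0.07 and 0.17 in the same order, and after quantile normalization 0.08 (CANX) and 0.12 (SEC61B). Without 1 library, values near 0 turned, with ranges of -0.03 to 0.02 (CANX), -0.07 to 0.00 (TXNDC11), -0.00 to 0.07 (SYVN1), -0.02 to 0.04 (EDEM2), -0.01 to 0.09 (SIL1), -0.09 to 0.01 (ATF6B) and -0.05 to 0.00 (SEC61B).

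Same-numbered libraries did not deviate together (r = 0.12, 0.01 and -0.10 for numbers 2, 3 and 4). With a replicate block 12 members were higher and 5 lower: HSPA5, MANF, DERL1 and PPIB lost their calls (limma adjusted p = 0.054, 0.065, 0.10 and 0.062). ERN1 and EDEM3, below the level filter, had 145 to 349 reads per library.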
